A study of Rattus norvegicus with 12 samples.

Results

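The interferon regulatory factor (IRF) genes are described here in cultured neonatal rat ventricular myocytes (NRVMs). The members were the genes whose symbols in the deposited tables are Irf1, Irf2, Irf3, Irf4, Irf5, Irf7, Irf8 and Irf9. The set held 8 genes of the 18469 in the tables. It was chosen by name, with earlier results of these data known. NRVMs are heart muscle cells taken from newborn rats, here of the Sprague-Dawley (SD) strain, and kept in culture. All cells received an siRNA, either siNeg, the negative control, or siSlc25a26, directed against Slc25a26, the carrier that brings S-adenosylmethionine into mitochondria. Each siRNA was combined with no further treatment or with phenylephrine (PE), an alpha-adrenergic agonist used to provoke hypertrophic growth, given for 36 h after transfection. This gave 4 groups, named siNeg and siNeg.PE for the control siRNA and siSlc25a26 and siSlc25a26.PE for the other, with 3 libraries in each, which the submitters describe as independent biological replicates. A transfected culture carries the siRNA and transfection reagent in the control groups too, and no untransfected cells were among the libraries.

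IRF proteins are transcription factors that share a DNA-binding domain. IRF3 and IRF7 are switched on by kinases downstream of sensors of foreign nucleic acid and drive the genes of type I interferons. Secreted interferon then signals through its receptors and the STAT proteins, and IRF9 joins STAT proteins in the complex ISGF3, which raises many interferon-stimulated genes, IRF7 among them. IRF1 is an activator induced by interferon and by inflammatory signals, IRF2 binds similar sites and is often described as its antagonist, IRF5 acts in inflammatory signalling downstream of Toll-like receptors, and IRF4 and IRF8 are best known from lymphoid and myeloid cells.

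Total estimated counts per library lay between 24770972 and 28709049. The targeted gene Slc25a26 was 31.4 ± 2.0 CPM (read counts scaled to library size) in siNeg and 15.1 ± 0.612 CPM in siSlc25a26 (SD, n = 3 each; log2 fold change -1.08, edgeR adjusted p = 1.08e-05). The PE-treated groups had levels of 102 ± 14.1 CPM (siNeg.PE) and 102 ± 3.69 CPM (siSlc25a26.PE; log2 fold change -0.0062, adjusted p = 0.969), so the targeted gene does not bear out the label of the PE libraries, and each direction below that uses siSlc25a26.PE refers to the libraries labelled so. The counts of Slc25a26 were not whole numbers in 12 of 12 libraries, as happens when reads are shared with another feature. Nppa, which encodes the natriuretic peptide that PE induces, was higher with PE by 4.63 in siNeg and by 4.51 in siSlc25a26 on the log2 scale. All 8 cardiomyocyte markers were detected, at a summed 9975 to 13555 FPKM (fragments scaled by gene length and by library total). The lymphocyte marker Cd3e was at or under 3 counts in every group.

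The promoter sequences of Irf1, Irf7, Irf8 and Irf9 are shown because these 4 members passed the test in both comparisons of siSlc25a26 with siNeg. Each is the 250 bases before the annotated start in RefSeq, assembly GRCr8, written 5′ to 3′ on the strand of the gene. Capitals mark matches to the interferon-stimulated response element (ISRE) core GAAANNGAAA, the gamma-activated site (GAS) TTCNNNGAA or a kappa B site GGGNNTTTCC, searched on both strands, and no capitalised match overlapped another. The Irf1 window lies on the plus strand at chr10:38417685-38417934, that of Irf7 on the minus strand at chr1:205800024-205800273, that of Irf8 on the plus strand at chr19:65699034-65699283 and that of Irf9 on the plus strand at chr15:33065586-33065835. The windows of Irf7 and Irf9 overlap, in part or in whole, a longer model of the same gene in that annotation.
Irf1: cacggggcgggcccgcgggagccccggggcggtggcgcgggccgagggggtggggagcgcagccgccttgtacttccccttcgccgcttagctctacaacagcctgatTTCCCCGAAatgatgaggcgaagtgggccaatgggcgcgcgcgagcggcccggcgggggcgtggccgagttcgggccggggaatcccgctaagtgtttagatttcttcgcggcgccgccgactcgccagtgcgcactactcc
Irf7: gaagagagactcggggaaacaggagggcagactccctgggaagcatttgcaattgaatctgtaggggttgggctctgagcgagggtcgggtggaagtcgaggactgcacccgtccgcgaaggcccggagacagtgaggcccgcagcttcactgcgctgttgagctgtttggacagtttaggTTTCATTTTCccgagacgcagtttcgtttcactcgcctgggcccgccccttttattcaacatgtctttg
Irf8: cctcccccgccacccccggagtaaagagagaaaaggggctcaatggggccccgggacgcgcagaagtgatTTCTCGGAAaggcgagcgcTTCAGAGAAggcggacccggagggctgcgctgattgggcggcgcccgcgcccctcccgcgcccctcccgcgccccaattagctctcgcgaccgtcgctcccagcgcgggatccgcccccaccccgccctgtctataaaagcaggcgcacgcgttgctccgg
Irf9: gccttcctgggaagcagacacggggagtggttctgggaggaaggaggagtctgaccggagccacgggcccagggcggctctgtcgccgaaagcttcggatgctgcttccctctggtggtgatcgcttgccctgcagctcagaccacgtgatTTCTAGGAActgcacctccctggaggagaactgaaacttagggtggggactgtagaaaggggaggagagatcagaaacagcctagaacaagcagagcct
The Irf7 window held an ISRE core, read on the opposite strand as TTTCATTTTC, 69 to 60 bases before the start. The windows of Irf1 and Irf9 held 1 GAS each, TTCCCCGAA at 142 to 134 bases and TTCTAGGAA at 99 to 91 bases before the start, and the Irf8 window held 2, TTCTCGGAA at 180 to 172 and TTCAGAGAA at 161 to 153. Over the 33469 rat promoter windows of that length, 3.41% held the ISRE core, 7.67% the GAS and 1.30% the kappa B site, so each of these letter patterns is present by spelling alone in many genes. The same search found a kappa B match in the Irf3 window and none of these 3 patterns in the windows of Irf4 and Irf5. The GC box GGGCGG, also searched on both strands and left in lower case, was in all 7 windows available, against 30.5% of all windows and 56.3% of those of genes tested here. A match describes letters only, and binding of a factor was not measured in these data.

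In siNeg cells without PE the IRF genes were expressed at low to moderate levels and no member dominated. Levels of different genes are compared in FPKM, which divides by gene length. Counts and FPKM of a gene did not keep a fixed ratio between libraries. In siNeg Irf8 had 23 counts at 0.31 FPKM in replicate 1 and 21 counts at 0.38 FPKM in replicate 3, although the library totals were 26870531 and 26370534. Orders and shares by FPKM, above all of low genes, are uncertain to that extent. Irf7 had the highest mean at 18.4 ± 2.48 FPKM, but its libraries overlapped with those of Irf3 (15.6 ± 0.327), and the libraries of Irf3 overlapped with those of Irf9 (14.6 ± 1.13; SD, n = 3 each). Below them, with no overlap between neighbours, came Irf1 at 12.8 ± 0.399 FPKM, Irf2 at 9.21 ± 0.624, Irf5 at 2.90 ± 0.375, Irf8 at 0.310 ± 0.0700 and Irf4 at 0.0833 ± 0.0153. Irf7 made up 24.8% ± 2.39 of the summed FPKM of the 8 genes.

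In siSlc25a26 cells without PE the same genes stood in another order, led by Irf7 at 1345 ± 81.4 FPKM. Irf7 was then the gene with the 35th highest mean FPKM of the whole table, against the 4397th in siNeg, and it made up 89.3% ± 0.413 of the IRF sum. Irf9 followed at 68.0 ± 2.82 FPKM and Irf1 at 53.5 ± 3.18, both above Irf3 at 20.3 ± 2.25, Irf2 at 14.3 ± 0.261, Irf5 at 4.34 ± 0.531, Irf8 at 1.19 ± 0.294 and Irf4 at 0.0233 ± 0.0153, and no neighbours in this order overlapped. The summed FPKM of the 8 genes was 73.9 ± 2.94 in siNeg and 1507 ± 87.7 in siSlc25a26.

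With PE the order in siNeg.PE was led by Irf3 at 13.8 ± 0.875 FPKM, and Irf7, at 7.45 ± 1.77 FPKM, overlapped with Irf1 (8.60 ± 0.743) above it and with Irf2 (7.36 ± 1.11) below it. Irf8 and Irf4 also overlapped in siNeg.PE. The order in siSlc25a26.PE was that of siSlc25a26 for all 8 genes, again with no overlap between neighbours, with Irf7 at 795 ± 96.9 FPKM, Irf9 at 45.6 ± 3.51 and Irf1 at 20.3 ± 1.56. The Irf7 share was 14.6% ± 2.76 in siNeg.PE and 89.2% ± 0.905 in siSlc25a26.PE, and its rank by mean FPKM among all genes was 7247 and 96. The IRF sum was 50.7 ± 2.36 FPKM in siNeg.PE and 891 ± 101 in siSlc25a26.PE.

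**Figure D1:**
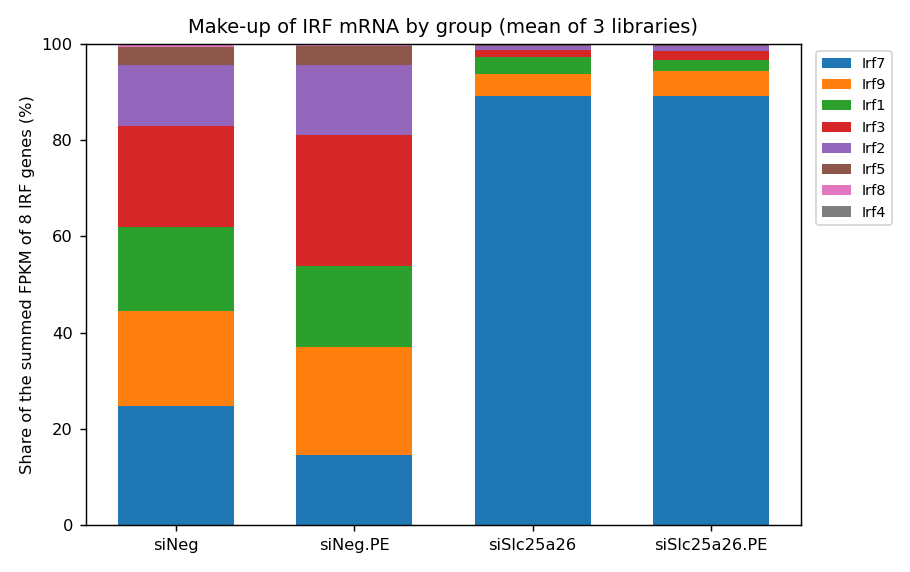
Share of the summed FPKM of the 8 IRF genes (vertical axis, percent) that each gene took in each group, as the mean of 3 libraries. Irf7 filled 24.8% of the bar in siNeg and 89.3% in siSlc25a26.

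The first comparison asked how the IRF genes differed between siSlc25a26 and siNeg without PE. Irf1, Irf2, Irf7, Irf8 and Irf9 rose, none fell, and Irf3 and Irf5 were higher at an adjusted p under 0.05 without reaching the fold threshold. A gene is said to rise or fall when its fold change exceeded 1.5 and its edgeR adjusted p over all genes tested was under 0.05. That made 5 higher of 7 members tested, where 8.92% of all 13829 genes tested were called higher. On the adjusted p alone 7 of 7 were higher, against 23.3% of all genes, and 7 of 7 had no overlap between the groups with siSlc25a26 above, against 31.6%. The adjusted p of Irf5 did not stay under 0.05 in every alternative run. The median log2 fold change of the 7 was 2.0, where the median of all genes was 0.015. Irf4 had too few counts to be tested.

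Irf7, the factor that amplifies the interferon response, gave the largest difference in the family. Its levels were 35.4, 39.2 and 30.0 CPM in siNeg and 2632, 2334 and 2435 CPM in siSlc25a26. The lowest siSlc25a26 library was far above the highest siNeg library, and the counts behind these values were 812 to 1027 against 70076 to 77258. The log2 fold change was 6.12 ± 0.115 (SE, adjusted p = 8.73e-10), a fold of 69.5.

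Irf9, the DNA-binding subunit of ISGF3, measured 26.0, 27.6 and 24.9 CPM in siNeg and 125, 124 and 119 CPM in siSlc25a26. The groups were well apart and the replicates close, with a log2 fold change of 2.20 ± 0.0588 (adjusted p = 7.78e-09). Irf9 counts were not whole numbers in 11 of 12 libraries, as happens when reads are shared with another feature, and its level is uncertain to that extent. Irf1, the activator, measured 24.4, 23.8 and 25.3 CPM in siNeg and 107, 95.5 and 98.4 CPM in siSlc25a26. All siSlc25a26 libraries were above all siNeg libraries, and the log2 fold change was 2.0 ± 0.0611 (adjusted p = 2.00e-08).

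Irf2, the counterpart of Irf1, measured 21.1, 22.0 and 23.5 CPM in siNeg and 34.6, 33.7 and 33.8 CPM in siSlc25a26. Its groups did not overlap, but its fold of 1.51 lay just inside the threshold (log2 fold change 0.59 ± 0.0670, adjusted p = 0.000153). The call was lost without siNeg replicate 1 (0.56), siNeg replicate 2 (0.58) or siSlc25a26 replicate 1 (0.58) and with DESeq2 or its size factors (0.58), each time because the fold came to under 1.5. Irf8, the factor known from myeloid cells, was close to the detection limit, with 23, 17 and 21 counts in siNeg and 117, 74 and 88 in siSlc25a26. Even so the groups were separate, at 0.752 ± 0.0947 CPM and 3.16 ± 0.774 CPM (SD, n = 3 each; log2 fold change 2.04 ± 0.240, adjusted p = 0.000199).

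Irf3, which is present before any stimulus in most cells, measured 25.0, 24.2 and 24.7 CPM in siNeg and 37.3, 33.1 and 30.7 CPM in siSlc25a26. The log2 fold change of 0.43 ± 0.0816 (adjusted p = 0.00289) was under the fold threshold although the groups were apart. Irf3 counts were not whole in 12 of 12 libraries. In RefSeq the gene overlaps Bcl2l12, whose own counts were whole in 12 of 12 libraries. The log2 fold change of Bcl2l12 was -0.27 (edgeR adjusted p = 0.0252). Which feature shares reads with Irf3 was not tested. Irf5 measured 6.56, 5.76 and 4.94 CPM in siNeg and 9.30, 8.57 and 7.54 CPM in siSlc25a26, again separate and again under the fold threshold (0.53 ± 0.137, adjusted p = 0.0127); it passed that threshold without siNeg replicate 1 (0.63) or siSlc25a26 replicate 3 (0.60). Irf4 had 10, 9 and 6 counts in siNeg and 1, 1 and 5 in siSlc25a26, so this member was the only one of the 8 with fewer counts in every siSlc25a26 library, at a depth too low for the test.

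**Figure D2:**
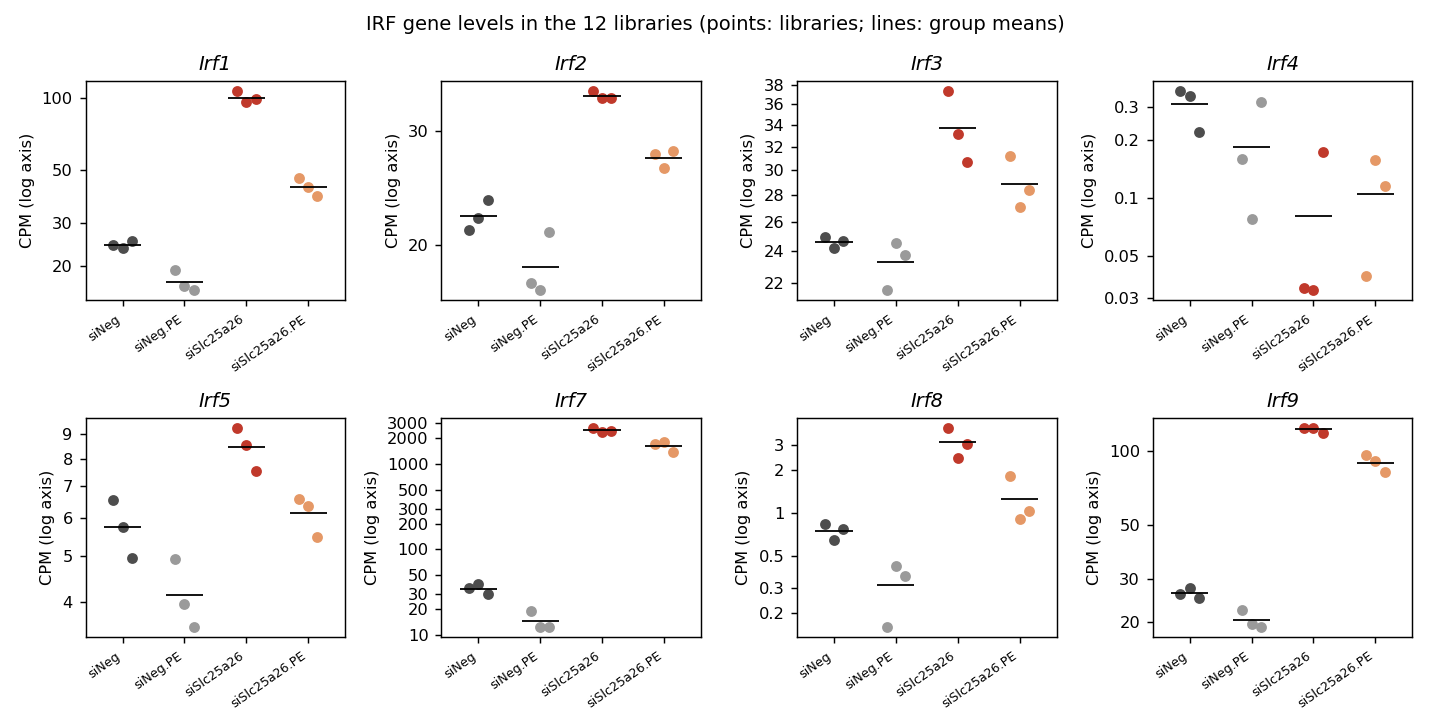
CPM of each IRF gene (vertical log axis, with its own range in each panel) in the 12 libraries, points by group and lines at the group means. The siSlc25a26 points lie above the siNeg points for every gene but Irf4, from 30.7 against at most 25.0 CPM for Irf3 to at least 2334 against at most 39.2 CPM for Irf7.

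The second comparison put the same question under PE. In the libraries labelled siSlc25a26.PE, Irf1, Irf7, Irf8 and Irf9 rose against siNeg.PE, 4 of 7 members tested where 7.71% of 13671 genes were called higher. On the adjusted p alone 7 of 7 were higher, against 20.1% of all genes, and 7 of 7 had no overlap between the groups with siSlc25a26.PE above, against 26.9%. For Irf3 and Irf5 the adjusted p did not stay under 0.05 in every alternative run. The median log2 fold change of the 7 was 1.30, where that of all genes was -0.0028. Irf8 is in each of these counts and in the median, and it entered the test only through the siSlc25a26.PE libraries.

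Irf7 measured 18.9, 12.5 and 12.6 CPM in siNeg.PE and 1700.2, 1773 and 1383 CPM in siSlc25a26.PE. This was the widest separation of the family again, with a log2 fold change of 6.77 ± 0.195 (adjusted p = 2.21e-08) and a fold of 109. Irf9 stood at 20.4 ± 1.80 CPM in siNeg.PE against 89.7 ± 7.26 CPM in siSlc25a26.PE (2.13 ± 0.0933, adjusted p = 3.83e-07). For Irf1 the levels were 19.1, 16.5 and 15.8 CPM and 46.5, 42.4 and 38.8 CPM (1.30 ± 0.101, adjusted p = 2.03e-05), against 2.0 without PE. Irf8 had 4, 11 and 9 counts in siNeg.PE and 47, 23 and 27 in siSlc25a26.PE (1.97 ± 0.420, adjusted p = 0.00555), and it entered this test only through the siSlc25a26.PE libraries, because siNeg.PE alone would not have passed the filter on low counts.

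Irf2 lay just outside the threshold under PE, at a fold of 1.47, with 17.5, 17.0 and 21.0 CPM in siNeg.PE and 27.7, 26.3 and 28.0 CPM in siSlc25a26.PE (0.55 ± 0.0931, adjusted p = 0.00167). Its log2 fold changes in the presence and absence of PE were thus 0.55 and 0.59, and the threshold of 1.5 passes between them. Irf5 also reached a fold of 1.47 (0.55 ± 0.158, adjusted p = 0.0210) and Irf3 a fold of 1.23 (0.30 ± 0.0815, adjusted p = 0.0165). Irf2 passed without siNeg.PE replicate 3 (0.63) or siSlc25a26.PE replicate 2 (0.59), and Irf5 without siNeg.PE replicate 1 (0.70) or siSlc25a26.PE replicate 3 (0.64). Irf4 had 4, 2 and 8 counts in siNeg.PE and 1, 4 and 3 in siSlc25a26.PE, which overlap.

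**Figure D3:**
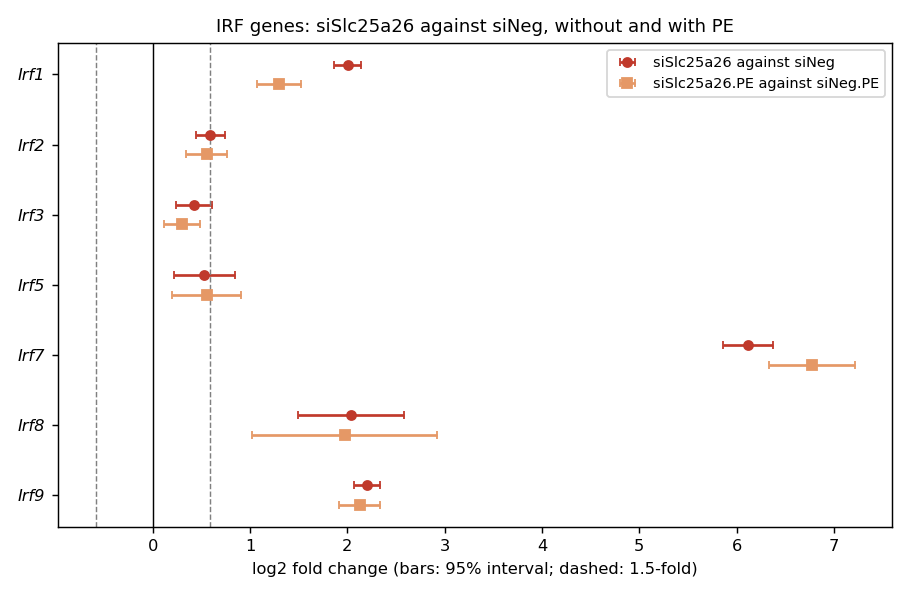
Log2 fold change of siSlc25a26 against siNeg without PE (circles) and with PE (squares) for the 7 IRF genes tested, with 95% intervals; dashed lines mark a fold of 1.5. Irf7 stands at 6.12 and 6.77, Irf1, Irf8 and Irf9 between 1.30 and 2.20, and Irf2, Irf3 and Irf5 between 0.30 and 0.59.

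The third comparison asked how PE moved the IRF genes in siNeg cells. Irf7 and Irf8 fell and no member rose, 2 of 7 tested where 8.24% of 13719 genes were called lower. Irf7 went from 30.0 to 39.2 CPM in siNeg to 12.5 to 18.9 CPM in siNeg.PE, with no overlap (log2 fold change -1.26 ± 0.169, adjusted p = 0.000663). Irf8 went from 17 to 23 counts to 4 to 11 counts, also with no overlap (-1.25 ± 0.372, adjusted p = 0.0231). The Irf8 call rested on single libraries at this depth: its adjusted p was 0.0735 without siNeg replicate 1, 0.0501 without siNeg replicate 3 and 0.0609 without siNeg.PE replicate 1. Irf8 entered this test only through the siNeg libraries.

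The other 5 members tested did not pass the fold threshold. Irf1 was lower by 1.44-fold, at 23.8 to 25.3 CPM in siNeg and 15.8 to 19.1 CPM in siNeg.PE (-0.53 ± 0.0869, adjusted p = 0.00174), and without siNeg.PE replicate 1 it passed the threshold at -0.60. Irf5 was at -0.48 ± 0.165 (adjusted p = 0.0394) and passed without siNeg replicate 3 (-0.59) or siNeg.PE replicate 1 (-0.62). Irf9 was at -0.37 ± 0.0840 (adjusted p = 0.00714), Irf2 at -0.27 ± 0.103 (adjusted p = 0.0552) and Irf3 at -0.09 ± 0.0761 (adjusted p = 0.342). On the adjusted p alone 5 of 7 were lower, against 24.3% of all genes, and Irf5 and Irf8 did not stay under 0.05 in every alternative run. In 6 of 7 all siNeg.PE libraries were below all siNeg libraries, against 29.1% of all genes, the exception being Irf3. The median of the 7 was -0.48.

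The fourth comparison put PE to the siSlc25a26 cells. Irf1, Irf7 and Irf8 fell and no member rose, 3 of 7 tested where 10.4% of 13776 genes were called lower. Irf1 went from 95.5 to 107 CPM in siSlc25a26 to 38.8 to 46.5 CPM in siSlc25a26.PE, with no overlap (-1.23 ± 0.0742, adjusted p = 2.31e-06). Irf8 went from 74 to 117 counts to 23 to 47 counts (-1.31 ± 0.291, adjusted p = 0.00487). Irf7 went from 2334 to 2632 CPM to 1383 to 1773 CPM and was just inside the threshold, 1.51-fold lower (-0.60 ± 0.0877, adjusted p = 0.000476). That Irf7 call was lost without siSlc25a26 replicate 1 (-0.55) or siSlc25a26.PE replicate 3 (-0.50). Even so, the lowest siSlc25a26.PE library was well above the highest siNeg library for Irf7, at 1383 against 39.2 CPM.

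Irf9, at -0.44 ± 0.0624 (adjusted p = 0.000393), Irf5, at -0.45 ± 0.121 (adjusted p = 0.0123), and Irf2, at -0.31 ± 0.0610 (adjusted p = 0.00261), did not reach the fold threshold. Irf3 was at -0.21 ± 0.0877 (adjusted p = 0.0711). On the adjusted p alone 6 of 7 were lower, against 26.0% of all genes, and 6 of 7 had all siSlc25a26.PE libraries below all siSlc25a26 libraries, against 31.5%. Here too the adjusted p of Irf5 did not stay under 0.05 in every alternative run. The median of the 7 was -0.45. Irf4 was at 1 to 5 counts in siSlc25a26 and 1 to 4 in siSlc25a26.PE, which does not allow a statement on PE.

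The fifth comparison tested, in all 12 libraries, whether the effect of PE differed between the siRNAs, which is the same as asking whether the effect of siSlc25a26 differed with PE. Irf1 passed, with a PE effect lower by 0.72 on the log2 scale in siSlc25a26 (difference -0.72 ± 0.118, adjusted p = 0.00253), 1 of 7 members tested where 3.34% of 14097 genes were called lower. Irf7 had the opposite sign, at 0.64 ± 0.205, and did not pass (adjusted p = 0.0650); it passed without siNeg replicate 3 (0.73), siNeg.PE replicate 1 (0.86) or siSlc25a26.PE replicate 3 (0.74). For the other members the 95% intervals of the difference spanned 0. That of Irf9 ran from -0.32 to 0.14, that of Irf2 from -0.30 to 0.19 and that of Irf3 from -0.40 to 0.11. Irf5 ran from -0.44 to 0.45 and Irf8, with few counts, from -1.33 to 1.18. A difference of the size seen for Irf1 thus lay outside the intervals of Irf2, Irf3, Irf5 and Irf9 and inside that of Irf8.

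**Figure D4:**
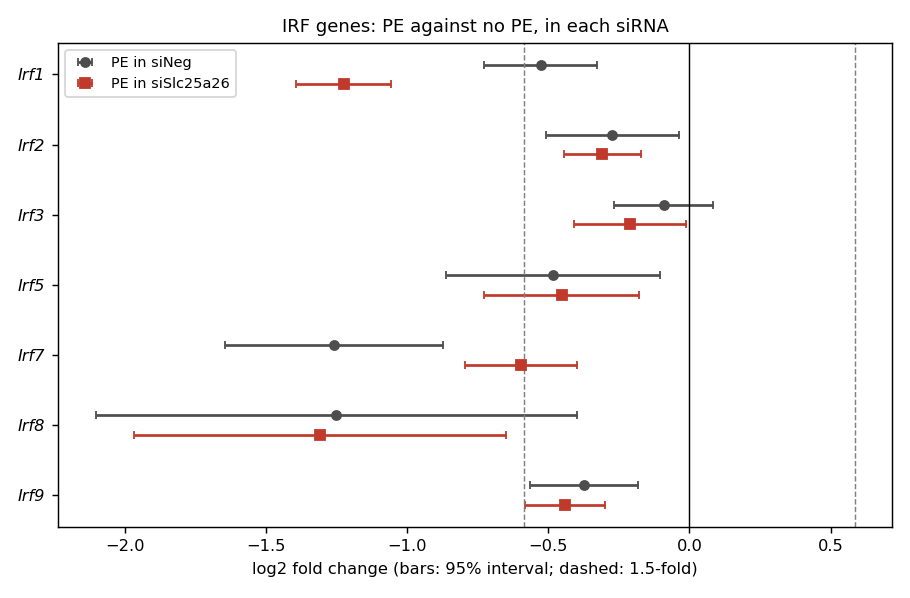
Log2 fold change of PE against no PE in siNeg (circles) and in siSlc25a26 (squares) for the 7 IRF genes tested, with 95% intervals; dashed lines mark a fold of 1.5. All points are below 0, and Irf1 is at -0.53 in siNeg and -1.23 in siSlc25a26.

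The genes around the family in the pathway were taken from lists by name. Among the adaptors and kinases that activate IRFs, 3 of 13 rose without PE, where 8.92% of all genes were called higher: Ikbke (0.94) and Tbk1 (0.68), the kinases that phosphorylate IRF3 and IRF7, and Myd88 (0.64), the adaptor that links Toll-like receptors to IRF5 and IRF7. None of the 13 fell. Those not called were Mavs (-0.17), Tmem173, which encodes STING (0.36), Ticam1 (0.0031), Traf3 (0.21), Traf6 (0.26), Irak1 (0.064), Irak4 (-0.29), Tank (0.38), Azi2 (0.42) and Tbkbp1 (0.43). Under PE 2 of 13 rose, where 7.71% of all genes were called higher: Ikbke (0.97) and Tbkbp1 (0.93), an adaptor that binds TBK1.

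Among the interferon receptor, Janus kinase and STAT genes described here, Stat2 (2.79, adjusted p = 4.33e-09), which encodes a partner of IRF9 in ISGF3, and Jak2 (0.94, adjusted p = 0.000448) rose without PE. The receptor genes Ifnar1 (0.097), Ifnar2 (0.41), Ifngr1 (0.40) and Ifngr2 (0.35) and the kinase genes Jak1 (0.22) and Tyk2 (0.46) did not reach the fold threshold. Under PE Stat2 rose (2.46), and the receptor genes and Jak1, Jak2 and Tyk2 did not pass.

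Interferon genes themselves were scarcely represented. Of 10 in the tables, 8 were at 0 counts in all siNeg libraries and 10 of 10 in all siNeg.PE libraries. Ifnb1, the gene of interferon beta and a direct target of IRF3 and IRF7, had 1, 0 and 0 counts in siNeg and 50, 53 and 55 in siSlc25a26, and it was the only interferon gene with enough counts to be tested, which it reached only through the siSlc25a26 libraries. It had 0 counts in all siNeg.PE libraries and 4, 7 and 7 in siSlc25a26.PE. Ifna4 had 9 to 23 counts and Ifna11 5 to 12.5 counts in siSlc25a26, and both were at 0 in siNeg; the alpha interferon genes are near-identical copies, so their counts are uncertain.

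Textbook targets of IRFs rose almost throughout. Without PE 13 of the 15 targets tested rose, where 8.92% of all genes were called higher, and 2 fell, where 7.20% were called lower. The median log2 fold change of the 15 was 4.33. Mx1, an antiviral GTPase, changed most (8.44), followed by Ifit3 (8.20), Isg15 (7.07) and Rsad2 (6.85). B2m, the light chain of MHC class I, rose by 2.61, and Il15 (-0.61) and Cybb (-1.07), a phagocyte oxidase subunit, fell. Ifit1 was not tested without PE. Under PE the count was 13 of 16, where 7.71% of all genes were called higher, with Ifit1 (0.37), Il15 (-0.048) and Cybb (0.064) not passing, and the median was 3.84. Ccl5, one of the 13, entered that test only through the siSlc25a26.PE libraries.

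With PE in the siSlc25a26 cells 13 of 16 targets fell, where 10.4% of all genes were called lower, and B2m (-0.19) and Cybb (0.17) did not pass, with a median of -0.81. In siNeg cells 4 of 16 fell with PE, where 8.24% of all genes were called lower, namely Cxcl10 (-0.80), Tap1 (-0.71), Il15 (-1.37) and Cybb (-0.96). Ifit1 went the other way and was called higher with PE in siNeg (2.64) and in siSlc25a26 (2.27), where 12.4% and 10.1% of all genes were called higher. Ifit1 had 1.03 to 6 counts in siNeg, 12.03 to 22.06 in siNeg.PE, 2.01 to 9.1 in siSlc25a26 and 20.08 to 30.12 in siSlc25a26.PE, and it entered both PE tests only through the libraries with PE. The difference between these PE effects passed for 7 of 16 targets: it was lower in siSlc25a26 for Mx1 (-1.39), Ifit3 (-1.13), Ifit2 (-0.84), Rsad2 (-0.81), Psmb9 (-0.69) and Nlrc5 (-0.63), and higher for Cybb (1.11), where 3.34% of all genes were called lower and 2.16% higher.

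Of the genes for proteins that bind or modify IRFs, Trim21 (4.01 and 3.65), a ubiquitin ligase known to act on IRFs, rose without PE and under PE. Without PE Irf2bp1 (-0.014), Irf2bp2 (0.21), Irf2bpl (0.19), Trim28 (-0.11), Rbck1 (0.25) and Stub1 (-0.053) did not pass.

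**Figure D5:**
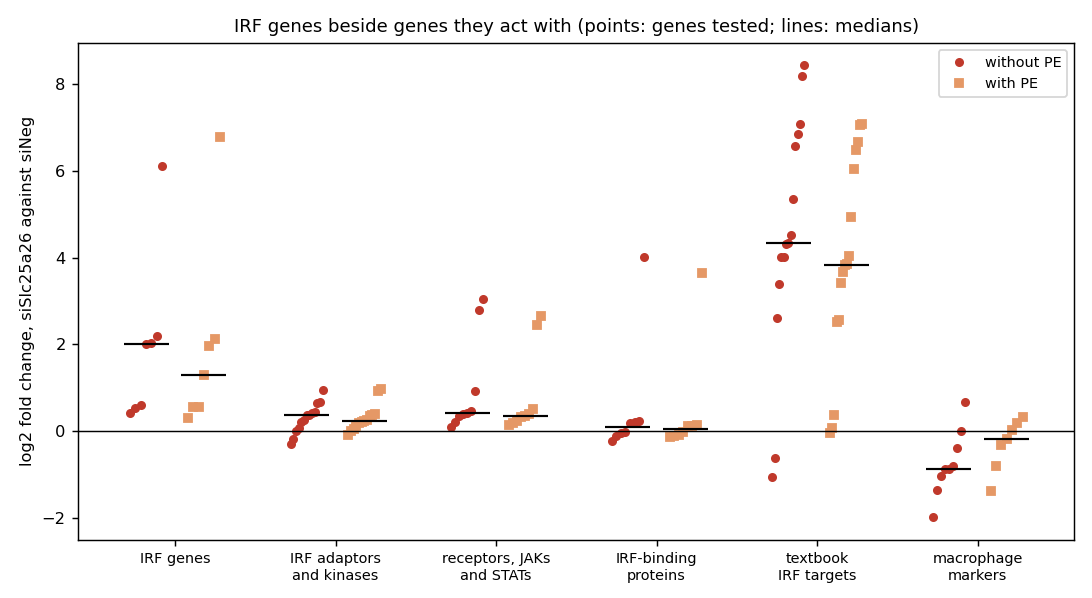
Log2 fold change of siSlc25a26 against siNeg for each gene tested (vertical axis), by list, without PE (circles) and with PE (squares); lines are medians. The median was 2.0 for IRF genes, 0.36 for the adaptors and kinases, 4.33 for the targets and -0.88 for macrophage markers without PE.

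Irf8 and Irf4 are best known from blood-derived cells, and macrophage markers moved in these libraries. Without PE Irf8 was higher in siSlc25a26 (2.04), and Irf4 was not tested. The summed FPKM of 10 macrophage markers was 91.8 to 111 in siNeg, 49.0 to 54.7 in siNeg.PE, 51.3 to 60.6 in siSlc25a26 and 30.0 to 36.0 in siSlc25a26.PE. Without PE 6 of 9 tested were lower in siSlc25a26, Mrc1 (-1.98) and Itgam (-1.36) among them, where 7.20% of all genes were called lower. The other 3 were not called, at 0.68 for Aif1 (adjusted p = 0.0595), 0.012 for Ptprc and -0.38 for Adgre1. Under PE 2 of 7 tested were lower in siSlc25a26.PE, Mrc1 (-1.37) and Lyz2 (-0.80), where 8.10% of all genes were called lower. With PE 7 of 9 were lower in siNeg, where 8.24% of all genes were called lower, and Aif1, one of the 7, entered only through the siNeg libraries. In siSlc25a26 2 of 9 were lower with PE, where 10.4% of all genes were called lower, and the 7 not called included C1qa (0.34) and Mrc1 (0.060). Cd163 was at or under 3 counts in all 4 groups. Spi1, the partner of IRF8 and IRF4 in myeloid cells, was lower in siSlc25a26 (-0.81, adjusted p = 0.0110) and in siNeg.PE against siNeg (-1.04, adjusted p = 0.00328). Spi1 was not called in siSlc25a26.PE against siNeg.PE (-0.26, edgeR adjusted p = 0.506) or with PE in siSlc25a26 (-0.48, edgeR adjusted p = 0.176). Other listed partners did not fall with it without PE. Ikzf1 was not called (0.26), and Batf, not tested, had 1 to 8 counts in siNeg and 10 to 16 in siSlc25a26. In bulk RNA, fewer cells of a type and less RNA per cell cannot be told apart. Fibroblast markers also moved, at a summed 4411 to 4767 FPKM in siNeg and 2421 to 2460 in siNeg.PE. Their sum was 2620 to 2922 FPKM in siSlc25a26 and 1594 to 1807 in siSlc25a26.PE. With PE 4 of 8 were lower in siNeg and 1 of 8 in siSlc25a26, against 8.24% and 10.4% of all genes. In siSlc25a26 against siNeg 5 of 8 were lower, where 7.20% of all genes were called lower. Beside them 2 of 4 mural cell markers and 1 of 8 cardiomyocyte markers were lower there. Tcf21, a transcription factor of cardiac fibroblasts, was not called without PE (0.40, edgeR adjusted p = 0.0156). In siSlc25a26.PE against siNeg.PE 3 of 8 fibroblast markers were lower, where 8.10% of all genes were called lower. The 1 called higher there was Tcf21 (0.61, edgeR adjusted p = 0.000254), where 7.71% of all genes were called higher. The part of other cell types in the IRF levels was not tested.

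The IRF genes were also set against all others by the root mean square difference in log2 CPM, each gene centred over the 12 libraries, among 14096 genes. Genes were not scaled, so the measure reflects the size of change as well as its shape over libraries that share siRNA and treatment. It says nothing of shared control. The 3 genes closest to Irf7 were Oas1a (0.27), an antiviral enzyme, Rtp4 (0.29) and Isg15 (0.38), while Irf7 itself ranged over 7.71. Irf9 was closest to LOC103690108 (0.079), Pml (0.11) and Trim25 (0.12). LOC103690108 had counts that were not whole in 12 of 12 libraries, as Irf9 had in 11 of 12, and whether the 2 share reads was not tested.

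Irf1 was closest to Tnfaip3 (0.14), an inhibitor of NF-kappa B signalling, Tmem140 (0.15) and Trafd1 (0.16). Irf8 was closest to Cxcl11 (0.37), Faxdc2 (0.42) and Tnfaip3 (0.43), at larger distances than the closest genes of Irf1. Irf2, Irf3 and Irf5, which ranged over 1.02, 0.79 and 1.37 on the log2 scale, were closest to genes outside the interferon lists. For Irf2 these were Usp42 (0.076), Ssh1 (0.081) and Vav2 (0.083), for Irf3 Coil (0.081), Zfp236 (0.082) and Tor1aip2 (0.085), and for Irf5 Grk6 (0.11), Ppm1h (0.13) and Mtmr1 (0.14). Within the family Irf2 and Irf3 were nearest to each other (0.16), followed by Irf2 and Irf5 (0.23), and Irf7 was at least 2.17 from every other member tested.

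Most genes next to the members in the RefSeq annotation did not move with them. The nearest annotated protein-coding gene on each side is meant. It need not lie close by, and Foxf1, Cox4i1, Kcp, Slc22a5, Prmt1, Exoc2 and Dusp22 do not. Foxf1 and Rnf31 were called higher in both comparisons of siSlc25a26 with siNeg, where 8.92% of all genes were without PE and 7.71% under PE. Nearest to Irf8 on one side is Foxf1, a transcription factor of mesenchyme, which had 7, 6 and 2 counts in siNeg and 77, 66 and 89 in siSlc25a26. Under PE it had 15, 13 and 9 counts in siNeg.PE and 41, 45 and 44 in siSlc25a26.PE. Foxf1 entered both tests only through the siSlc25a26 and siSlc25a26.PE libraries. On the other side of Irf8 is Cox4i1, a respiratory chain subunit, at -0.55 without PE and -0.38 under PE. Next to Irf9 lies Rnf31, the catalytic subunit of the linear ubiquitin ligase complex, which rose in both comparisons (0.76 and 0.65) and whose counts were not whole in 11 of 12 libraries. Beside Irf7 Phrf1 was at -0.28 and -0.043, and Cdhr5 was not tested. Kcp, beside Irf5, fell without PE (-1.25, adjusted p = 0.000562) and did not pass under PE (-0.36), and Tnpo3 on its other side was at 0.15 and -0.075. Slc22a5 beside Irf1 was at 0.11 and -0.045. For Irf3 the next genes were Prmt1 (-0.041 and 0.14) and Scaf1 (-0.013 and 0.14), and for Irf4 Exoc2 (0.12 and -0.053) and Dusp22 (0.10 and -0.0040). Rec8 beside Irf9 was not tested, and Il5 beside Irf1 and Ptmal4 beside Irf2 were not analysed here.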

How the data were processed

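RNA of NRVMs was sequenced by BGI in 12 libraries of 4 groups, assigned from the sample titles. The authors deposited a table of estimated counts per gene, of which 20.8% to 21.9% per library were not whole numbers, and a table of FPKM values, scaled by gene length and library total. The submitters' processing notes name HISAT, Bowtie2 and Rnor_6.0 without giving their roles. The counting program, annotation and strandedness are not given in the sources used here, and without strand the reads of a gene and of an antisense partner cannot be told apart. The study's paper describes siNap1l5, not siSlc25a26, in the same kind of cells, and its times of treatment differ from the labels.

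Estimated counts were rounded and tested with edgeR 4.0.16 in R 4.3.3 (TMM, filterByExpr, quasi-likelihood F-test), with Benjamini-Hochberg adjustment over all genes tested. Each fit held the compared groups only, and the test of whether PE effects differed held all 12 libraries. CPM were scaled by TMM over all 12 libraries. Standard errors come from the F statistic and 95% intervals from the t distribution. Replicates shown with ± are SD over 3 libraries for levels and SE for log2 fold changes. Levels at or under 3 counts were not taken as detected. That floor is 0.104 to 0.121 CPM by the library total before TMM scaling, and it covers counting error only. No library was a repeat of another in its group: the lowest chi-square per gene between replicates was 4.77. Libraries of different groups were not compared in this way.

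Gene identifiers matched the RefSeq table of assembly GRCr8 for 16962 of 18469 genes (91.8%), and for 8 of 8 members. That table was used for names and neighbours only. Promoter sequences were found for 7 members, and Irf2 has none here. Named genes were the members, Slc25a26, Nppa, the 3 closest genes by root mean square difference, the neighbours, and genes of the lists (all where a list has 9 or fewer, otherwise the 4 with the largest called change and those not called). Genes named under PE, B2m, Ccl5, Mrc1, Itgam, Lyz2, Aif1, Ptprc, Adgre1, C1qa, Tcf21, Cd163 and Cd3e were added after their values were seen. Some genes of these lists and neighbours are not reported here. The members and lists were chosen with earlier results of these data known. The scripts were tested on simulated data. Alternatives were DESeq2 1.42.0, its size factors in edgeR, limma 3.58.1 (voom, and log2 of FPKM plus 1 or 0.1), other count filters, no fold threshold, a replicate block, all 12 libraries in every fit, and each library left out.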

Additional observations from a re-analysis of the deposited data

Results flagged for a closer look

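The effect of PE on Irf1 differed between the siRNAs: the log2 fold change with PE was -0.53 in siNeg and -1.23 in siSlc25a26, a difference of -0.72 (edgeR adjusted p = 0.00253, interaction term over 12 libraries). Every siSlc25a26.PE library was below every siSlc25a26 library, and every siNeg.PE library was below every siNeg library. The difference lay between -0.84 and -0.64 over the alternatives run, with adjusted p from 5.97e-06 to 0.00932. The targeted gene Slc25a26 did not differ between the PE groups, and its part in this difference was not tested.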

How the results depend on the processing

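Of the counts of IRF genes called under the alternatives, 73 were within 1.5 times the reported count and 12 were not. Without a fold threshold the counts were 7 in place of 4 for siSlc25a26.PE against siNeg.PE, 5 in place of 2 for PE in siNeg and 6 in place of 3 for PE in siSlc25a26, by construction. For PE in siNeg the count was 1, with Irf8 not called, with DESeq2, with limma on log2(FPKM + 1) or log2(FPKM + 0.1) and with at least 10 counts required in every library, where Irf8 was not tested. Leaving out single libraries gave 1 to 3 IRF genes for PE in siNeg and 1 to 2 for the difference between PE effects. Whether replicate numbers pair the samples was not settled. Same-numbered libraries correlated at -0.10 to 0.28 in their deviations, and libraries of different numbers were not compared. With the replicate block the difference between PE effects passed for 2 members, Irf1 and Irf7 (edgeR adjusted p = 0.0248 for Irf7). No other count moved by over 1.5 times with that block. The difference between PE effects of Irf5, reported as 0.0085, was -0.096 with log2(FPKM + 1) and -0.075 with log2(FPKM + 0.1). Leaving out single libraries turned its sign and those of Irf2 and Irf8, over ranges of -0.098 to 0.15, -0.11 to 0.054 and -0.45 to 0.20. Of the values of single genes, 538 kept direction and call, 14 lost the call, 25 gained it and 15 changed sign, all 15 in the difference between PE effects. The FPKM scales moved the median of all genes by -0.13 and -0.17 for PE in siSlc25a26 and -0.11 and -0.14 for the difference, and the log2(FPKM + 1) scale understates low genes such as Irf8 (0.74 in place of 2.04 without PE, and 0.30 in place of 1.97 under PE, where the call was lost). The cause of the other changes was not tested. Depth limits statements on Irf4 and Irf8.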
